A study of Homo sapiens with 6 samples.

Results

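Aminoacyl-tRNA synthetases are the enzymes that join each amino acid to its transfer RNA before the ribosome can use it. Human cells keep one set for the cytosol and a second set, also encoded in the nucleus, for translation inside mitochondria, while a few genes, among them GARS1 (glycine) and KARS1 (lysine), are known to supply both compartments. The 35 genes described here were chosen by symbol, with symbols ending in 2 taken as the mitochondrial class (16 genes) and the others as the cytosolic or shared class (19 genes). All 35 were found among the 23459 genes of the count table, and all 35 passed the filter on low counts that left 12510 genes for testing.

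The data were 3′ mRNA sequencing libraries from MCF10A, an established line of non-tumorigenic human mammary epithelial cells, transfected with 20 nM of a non-targeting siRNA (siCtrl, 3 libraries) or with siRNAs against YAP1 and WWTR1, the gene for TAZ (siYAP/TAZ, 3 libraries). YAP and TAZ are transcriptional coactivators restrained by the Hippo pathway, and the comparison asks which transcripts depend on them. The cells of both groups carry the same WT label and were otherwise grown alike. The methods of the study describe its RNA sequencing replicates as biological but do not describe these siYAP/TAZ libraries. The sample labels do not say which cultures the replicates came from.

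Groups and replicate numbers follow the description field, which the column names of the table match. For siCtrl replicate 2 and siYAP/TAZ replicate 2 both the sample titles and the genotype fields name the other group. YAP1 was at 189, 204 and 210 CPM (read counts relative to the TMM-scaled size of their library) in siCtrl replicates 1 to 3 and at 117, 118 and 112 CPM in siYAP/TAZ replicates 1 to 3, and WWTR1 was at 109, 109 and 102 against 70.5, 67.1 and 59.8 CPM. Both target genes were lower in every siYAP/TAZ library as grouped here, with log2 fold changes of −0.80 for YAP1 (adjusted p 0.014) and −0.69 for WWTR1 (adjusted p 0.031, edgeR quasi-likelihood test, Benjamini-Hochberg over all genes tested). Total counts ran from 3175149 to 4317286 per library, at which 3 counts correspond to 0.695 to 0.945 CPM. All 7 basal mammary epithelial markers (KRT5, KRT14, KRT17, TP63, CDH1, ITGB4, LAMB3) were detected in every library. Of these markers 0 were called in the edgeR fit. A fit with the replicate number as a block called KRT5 (log2 fold change −0.47, adjusted p 0.023) and LAMB3 (−0.60, adjusted p 0.010) lower. It called TP63 (0.58, adjusted p 0.038) higher. These fold changes are from the fit without the block, and the part of these markers in the results was not tested. Of the 7 markers of other cell types, COL3A1 was at 0 counts in every library, which allows up to 0.945 CPM in the shallowest, PTPRC, VWF, COL1A1 and ALB stayed between 0 and 3.26 CPM, and ESR1 between 2.87 and 5.55 CPM. The endothelial marker PECAM1 was at 1.01 to 1.72 CPM in siCtrl and 3.17 to 9.59 CPM after siYAP/TAZ (log2 fold change 2.10 without the block). It was not called without the block and was called higher with it, beside 10.1% of all genes called. The part of PECAM1 in the results was not tested.

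Several cytosolic synthetase genes are known targets of ATF4, the transcription factor of the amino acid response, which binds composite elements with the core TGATGNAA. RefSeq promoters of build GRCh38.p14, 250 bases before to 50 after the annotated start, were matched for 30 of the 35 members. For each member only the first listed entry was searched, which need not be the start used most in these cells. The share over all promoters was counted over every entry, without dropping repeated genes. LARS1, VARS1, YARS1, AARS2 and VARS2 had no entry. Searched on both strands, TGATGNAA was present in 6 of 16 cytosolic promoters and in 1 of 14 mitochondrial ones, beside 3.62% of all 35116 promoters in the table. The windows of 30 bases around these matches are shown because the match, which the choice of genes did not use, was counted in more cytosolic than mitochondrial promoters. Capitals mark the match, and each window is written 5′ to 3′ along the strand of its gene.
AARS1 (cytosolic, chr16:70289675-70289704, minus strand): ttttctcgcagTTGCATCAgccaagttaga
CARS1 (cytosolic, chr11:3057407-3057436, minus strand): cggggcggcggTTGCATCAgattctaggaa
IARS1 (cytosolic, chr9:92293692-92293721, minus strand): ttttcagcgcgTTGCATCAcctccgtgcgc
MARS1 (cytosolic, chr12:57488053-57488082, plus strand): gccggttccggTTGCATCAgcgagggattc
NARS1 (cytosolic, chr18:57621804-57621833, minus strand): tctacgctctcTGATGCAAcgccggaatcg
TARS1 (cytosolic, chr5:33440956-33440985, plus strand): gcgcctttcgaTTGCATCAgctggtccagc
YARS2 (mitochondrial, chr12:32756076-32756105, minus strand): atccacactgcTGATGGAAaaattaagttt

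All 6 cytosolic matches had a C at the open position of the motif (TGATGCAA, read as TTGCATCA on the other strand), and YARS2 had a G. The letters TGATGCAA, spelled out only after these windows had been read, occurred in 0.866% of all promoters. In CARS1, IARS1, MARS1, NARS1 and TARS1 the match began within 14 bases of the annotated start, and in AARS1 it began 187 bases before it. The letters GGAATG, the core bound by the TEAD partners of YAP and TAZ, were in none of the 16 cytosolic promoters and in 2 of the 14 mitochondrial ones (WARS2 and YARS2), beside 14.0% of all promoters. TGANTCA, the AP-1 core, was in none of the 30 member promoters, beside 7.71% of all. The E-box CACGTG was in IARS1 among the cytosolic genes and in CARS2, EARS2 and MARS2 among the mitochondrial ones, beside 7.26% of all. A match describes the letters in this window only, as does its absence.

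The synthetase transcripts covered a wide range of levels. Reads of this kit come from the 3′ end of each transcript, so CPM is not expected to grow with transcript length, although priming can still differ between genes. Counts of members ran from 11 to 2104 per library. The most abundant was EPRS1, the fused glutamyl- and prolyl-tRNA synthetase of the cytosol, at 500.2 ± 30.5 CPM in siCtrl (SD, n = 3), followed by the mitochondrial isoleucyl enzyme IARS2 at 225 ± 32.8 CPM and KARS1 at 213 ± 11.4 CPM. The lowest were PARS2, the mitochondrial prolyl enzyme, at 3.81 ± 0.582 CPM and AARS2, the mitochondrial alanyl enzyme, at 6.56 ± 3.45 CPM. The median member was at 59.2 CPM in the cytosolic class and 31.9 CPM in the mitochondrial class, and the classes overlapped widely.

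**Figure D1:**
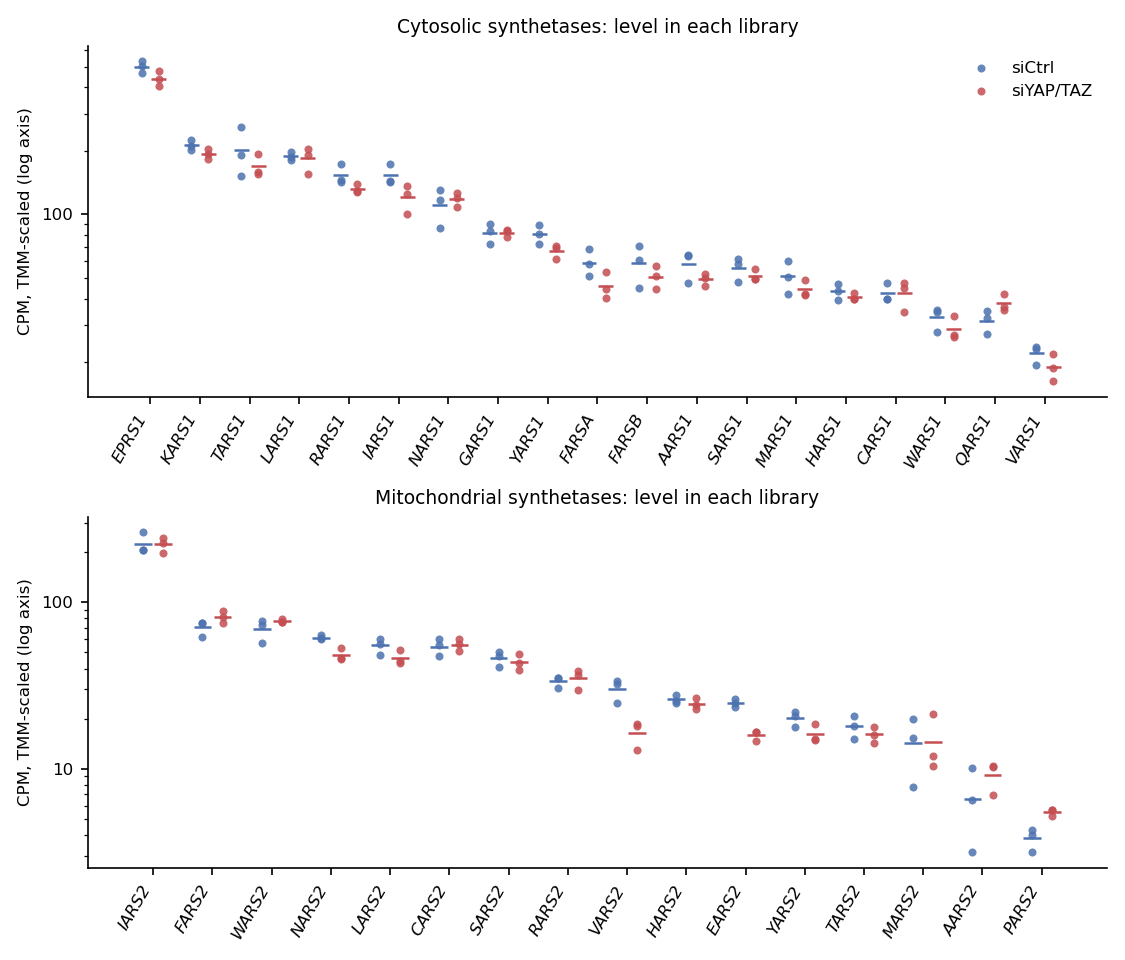
Level of each synthetase in each library (TMM-scaled CPM, log axis), cytosolic genes above and mitochondrial genes below, ordered by their siCtrl mean. Points are single libraries, blue for siCtrl and red for siYAP/TAZ, and bars are group means of 3 libraries. The groups overlap for most genes. They are apart for VARS2, EARS2, NARS2, IARS1, RARS1 and YARS1, which are lower, and for PARS2 and QARS1, which are higher.

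The cytosolic gene was not always the more abundant of a pair serving the same amino acid. Among 17 such pairs the cytosolic transcript was higher in all 6 libraries in 11 and the mitochondrial one in 4, which were FARSA:FARS2, FARSB:FARS2, IARS1:IARS2 and WARS1:WARS2. WARS2, the mitochondrial tryptophanyl enzyme, stood at 69.4 ± 10.8 CPM in siCtrl, 2.13 times the 32.6 ± 4.19 CPM of WARS1. FARS2, the single-chain mitochondrial phenylalanyl enzyme, was at 70.8 ± 7.86 CPM, beside 59.2 ± 8.75 CPM for FARSA and 58.8 ± 13.2 CPM for FARSB, the 2 subunits of the cytosolic enzyme, so their SD ranges in siCtrl overlapped although FARS2 was higher within each library. At the other end, EPRS1 exceeded PARS2 by 110 to 159 times in the siCtrl libraries.

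**Figure D2:**
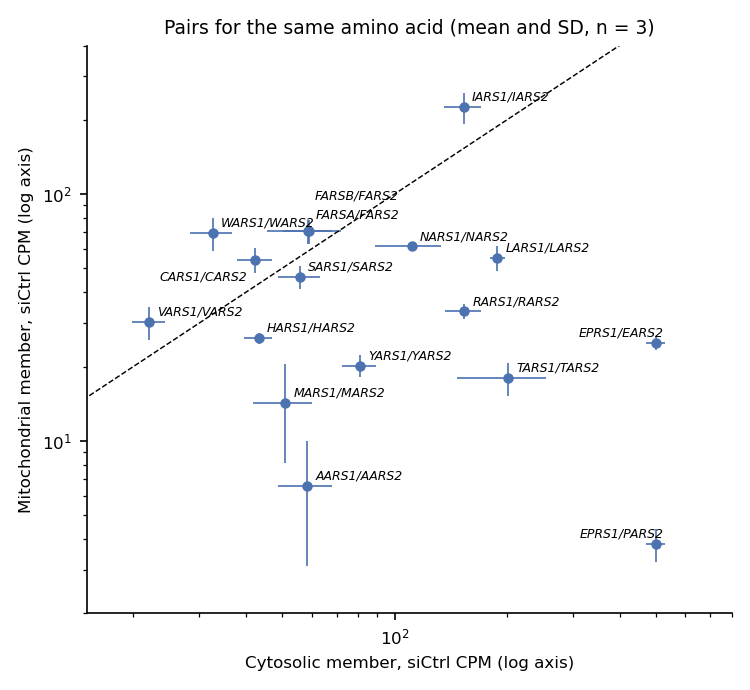
Mean siCtrl level of each mitochondrial synthetase against the cytosolic synthetase for the same amino acid (CPM, both axes logarithmic). Error bars are SD over 3 libraries and the dashed line marks equal levels. Pairs above the line, such as WARS1/WARS2 and IARS1/IARS2, have more of the mitochondrial transcript, and EPRS1/PARS2 lies farthest below it.

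After siYAP/TAZ no member passed an adjusted p of 0.05, beside 1.96% of all genes tested (245 of 12510, edgeR quasi-likelihood test). At an unadjusted p under 0.05 the mitochondrial genes VARS2, EARS2 and NARS2 were lower, 3 of 35 members beside 9.27% of all genes, and 0 members were higher, beside 8.40%. DESeq2 called 1 member, VARS2, beside 4.56% of genes. A fit with the replicate number as a block also called VARS2 alone, beside 10.1% of genes, and so did the fit without siCtrl replicate 2, beside 12.3%. The shares of members called were thus at or below those of all genes under each of these rules. Groups did not overlap for 6 of 35 members that were lower, a larger share than the 11.1% of all genes. They did not overlap for 2 of 35 that were higher, a smaller share than the 11.0% of all genes.

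The intervals show how large a change these libraries leave room for. The fitted 95% interval lay within a 2-fold change in either direction for 31 of the 35 members, including all 19 cytosolic ones, and within 1.5-fold for 19 members. The 4 genes whose interval reached past 2-fold were VARS2 and EARS2 on the lower side and AARS2 and PARS2 on the higher side. A fitted change over 1.5-fold was seen in 2 members, VARS2 and EARS2.

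**Figure D3:**
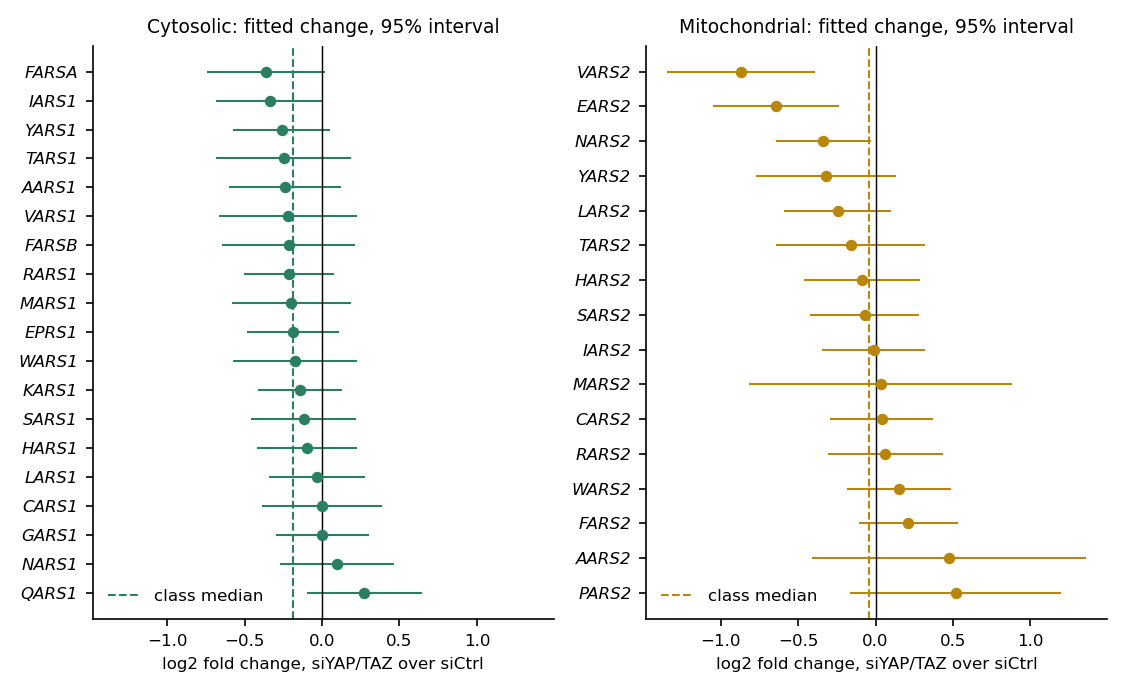
Fitted log2 fold change (siYAP/TAZ over siCtrl) of each synthetase with its 95% interval, from 3 libraries a group, cytosolic genes on the left and mitochondrial genes on the right. The solid line is no change and the dashed line the class median (−0.19 and −0.04). Of the cytosolic estimates 16 of 19 lie below 0, and the mitochondrial estimates spread to both sides.

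The cytosolic class lay slightly below no change. The fitted log2 fold change was below 0 in 16 of 19 cytosolic members and in 9 of 16 mitochondrial members, beside 50.1% of all genes. The median was −0.19 (quartiles −0.23 and −0.07) in the cytosolic class, −0.04 (quartiles −0.26 and 0.08) in the mitochondrial class and −0.00 over all genes tested, whose quartiles were −0.23 and 0.23. The difference of the class medians was −0.15. These members share libraries and were chosen with results known, so no p is given for a class. Leaving out 1 library at a time moved the cytosolic median between −0.22 and −0.11, the mitochondrial median between −0.08 and 0.01 and their difference between −0.16 and −0.07. The cytosolic median was smallest in size without siCtrl replicate 1 (−0.11) and, next, with siYAP/TAZ replicate 3 left out (−0.12), the mitochondrial median was −0.08 without siCtrl replicate 2 and reached 0.01 once siYAP/TAZ replicate 3 was left out, and the difference was −0.07 without siCtrl replicate 1.

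Summed over the class, cytosolic synthetases took 2288, 2044 and 2081 CPM in siCtrl replicates 1 to 3 and 2026, 1943 and 1783 CPM in siYAP/TAZ replicates 1 to 3. The sum was lower after siYAP/TAZ in all 3 pairs of same-numbered libraries, and the groups did not overlap, with means of 2137 ± 131 and 1917 ± 124 CPM (SD, n = 3). When every gene was given equal weight, as the mean log2 CPM of the class, the groups overlapped. The mitochondrial sums were 739, 774 and 767 CPM in siCtrl and 768, 734 and 688 CPM after siYAP/TAZ, and these overlapped, being lower after siYAP/TAZ in 2 of 3 pairs. The cytosolic share of all synthetase CPM was 75.6, 72.5 and 73.1% in siCtrl and 72.5, 72.6 and 72.1% in siYAP/TAZ. Apart from the first siCtrl library, the shares lay within 1 percentage point of each other. In bulk RNA a smaller part of cells expressing a gene and less RNA per cell cannot be told apart.

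**Figure D4:**
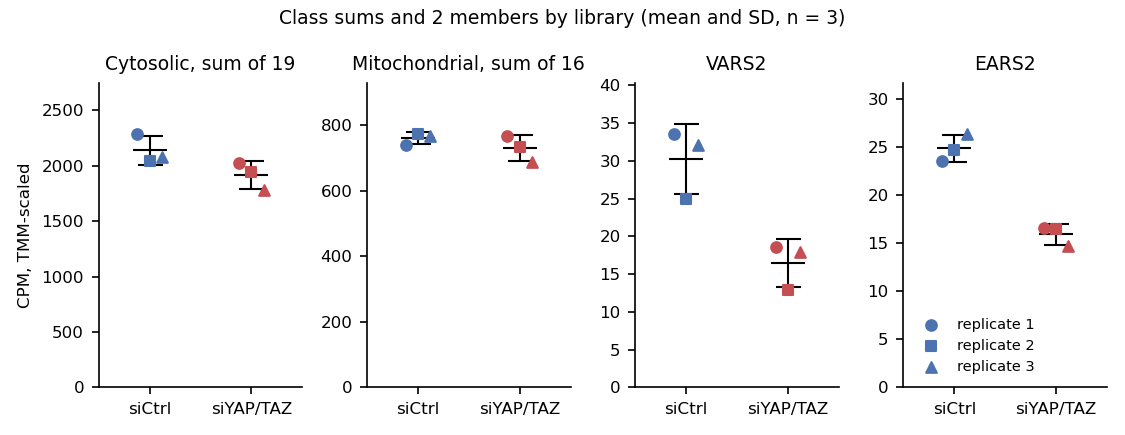
Summed level of the 19 cytosolic and of the 16 mitochondrial synthetases, and the levels of VARS2 and EARS2, in each library (TMM-scaled CPM, axes from 0). Symbols mark replicates 1 to 3 of each group, and bars the mean and SD of 3 libraries. All siYAP/TAZ libraries lie below all siCtrl libraries for the cytosolic sum, by a narrow gap, and for VARS2 and EARS2. The mitochondrial sums of the groups overlap.

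VARS2, the mitochondrial valyl-tRNA synthetase (GRCh37, chromosome 6, 30881982 to 30894236, plus strand), had the lowest fold change of all members. Its counts were 117, 81 and 128 in siCtrl and 82, 39 and 66 in siYAP/TAZ, or 33.6, 25.0 and 32.2 against 18.6, 12.9 and 18.0 CPM. Every siYAP/TAZ library lay below every siCtrl library, and replicate 2 was the lowest within each group. The log2 fold change was −0.87 (SE 0.21, interval −1.35 to −0.39), with an adjusted p of 0.075 in edgeR, 0.013 with the replicate block and 0.036 in DESeq2. Without siCtrl replicate 2 the adjusted p was 0.014, without both libraries whose titles name the other group 0.029, and without siCtrl replicate 3 it reached 0.289, so the call turned on the library left out while the estimate stayed between −0.98 and −0.73. With the libraries grouped by title instead, the estimate was −0.37 (adjusted p 0.898). No other gene of the table overlapped VARS2. Its cytosolic counterpart VARS1 was at 23.6, 19.4 and 23.1 against 18.8, 21.8 and 16.3 CPM, with overlapping groups and a log2 fold change of −0.22.

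EARS2 is the mitochondrial glutamyl-tRNA synthetase, which also charges the mitochondrial glutamine tRNA with glutamate for later conversion. It was at 23.6, 24.7 and 26.4 CPM in siCtrl and 16.5, 16.5 and 14.7 CPM after siYAP/TAZ. The replicates were close within each group and the groups were well apart. Its log2 fold change was −0.64 (SE 0.18), and the adjusted p of 0.108 in edgeR, 0.061 with the block and 0.165 in DESeq2 all missed the threshold. EARS2 (GRCh37, chromosome 16, 23532075 to 23569052, minus strand) overlaps UBFD1 on the opposite strand and GGA2 on its own strand. The counts of these genes, 54 to 108 and 63 to 77 in siCtrl against 56 to 93 and 71 to 97 in siYAP/TAZ, overlapped between groups. The counts of EARS2, 82, 80 and 105 in siCtrl against 73, 50 and 54 in siYAP/TAZ, did not. These counts are not scaled for library size, and whether EARS2 shares reads with either gene was not tested.

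NARS2, the mitochondrial asparaginyl enzyme, was at 60.9, 60.2 and 63.3 CPM in siCtrl and 53.3, 45.9 and 46.5 CPM after siYAP/TAZ. The groups did not overlap, and the log2 fold change of −0.34 (SE 0.14) had an adjusted p of 0.241 in edgeR. YARS2, for tyrosine, was at 21.8, 17.9 and 20.9 against 15.2, 14.9 and 18.5 CPM (log2 fold change −0.32, adjusted p 0.448), where the highest siYAP/TAZ library lay above the lowest siCtrl library. YARS2 overlaps the more abundant DNM1L on the opposite strand.

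On the higher side of the mitochondrial class, PARS2 was at 3.16, 4.01 and 4.27 CPM in siCtrl and 5.67, 5.62 and 5.17 CPM after siYAP/TAZ. All siYAP/TAZ libraries were above all siCtrl libraries, but with so few reads the log2 fold change of 0.52 (SE 0.30) had an adjusted p of 0.412. AARS2 was at 3.16, 6.48 and 10.1 against 10.2, 6.94 and 10.3 CPM. Its log2 fold change was 0.48 (SE 0.39) at an adjusted p of 0.576, and its siCtrl libraries spanned more than 3-fold. The reads given to AARS2 are uncertain, because its counts of 11, 21, 40, 45, 21 and 38 over siCtrl replicates 1 to 3 and then siYAP/TAZ replicates 1 to 3 differed by at most 3 from those of TMEM151B, which overlaps it on the opposite strand, in every library. Without AARS2 the mitochondrial median was −0.07, with 9 of 15 members below 0. FARS2 was at 75.5, 61.7 and 75.1 against 88.6, 82.0 and 75.3 CPM (log2 fold change 0.21), and WARS2 at 57.2, 73.4 and 77.6 against 75.9, 76.4 and 79.1 CPM (0.15). In WARS2 the siYAP/TAZ libraries formed a narrow band at the top of the siCtrl range.

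The other 8 mitochondrial members, LARS2, TARS2, HARS2, SARS2, IARS2, MARS2, CARS2 and RARS2, had log2 fold changes from −0.25 (LARS2) to 0.06 (RARS2), and their groups overlapped. Among them MARS2, for methionine, varied most within siCtrl, at 19.8, 7.71 and 15.3 CPM, and the interval of its change was correspondingly wide (−0.82 to 0.88). HARS2 and its cytosolic counterpart HARS1, for histidine, are transcribed away from each other from RefSeq starts 85 bases apart in GRCh38.p14 and overlap each other in the annotation. Their log2 fold changes were −0.09 and −0.10.

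Among cytosolic members FARSA, the alpha subunit of the phenylalanyl enzyme, had the lowest fold change, with 68.4, 50.9 and 58.3 CPM in siCtrl and 53.3, 44.3 and 40.3 CPM after siYAP/TAZ. The siYAP/TAZ values lay lower with a small overlap, and the log2 fold change of −0.36 (SE 0.17) did not pass the test (adjusted p 0.305). FARSB, the beta subunit of the same enzyme, had a log2 fold change of −0.22. IARS1, for isoleucine, was at 173, 142 and 145 against 137, 126 and 101 CPM (−0.34, SE 0.15, adjusted p 0.286), with no overlap of groups but a gap of only a few CPM. Its mitochondrial counterpart IARS2 was at 206, 263 and 207 against 228, 242 and 199 CPM, with a log2 fold change of −0.01.

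YARS1 was at 81.3, 88.9 and 72.1 CPM in siCtrl and 61.4, 69.4 and 71.3 CPM after siYAP/TAZ (−0.26, adjusted p 0.366), the groups being separated by less than 1 CPM. TARS1, for threonine, was at 259, 152 and 192 against 192, 159 and 156 CPM (−0.25, adjusted p 0.550), and its siCtrl replicates alone spanned the whole range of the siYAP/TAZ libraries. RARS1, for arginine, was the remaining lower cytosolic member without overlap (log2 fold change −0.21, adjusted p 0.429).

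At the upper end, QARS1, the glutaminyl enzyme, was at 27.3, 34.9 and 32.4 CPM in siCtrl and 41.9, 36.7 and 35.4 CPM after siYAP/TAZ. It was the only cytosolic member higher without overlap, by a narrow gap. The fitted difference of 0.27 (log2, SE 0.16) did not pass the test (adjusted p 0.430). NARS1, for asparagine, was at 130, 86.4 and 117 against 127, 120 and 109 CPM (log2 fold change 0.10). GARS1, at 83.9, 72.5 and 89.7 against 84.5, 78.0 and 83.8 CPM, and CARS1, for cysteine, at 47.7, 39.8 and 39.7 against 34.7, 45.0 and 47.6 CPM, had fold changes near 0 (0.00 and −0.00 on the log2 scale, with 95% intervals of −0.30 to 0.30 and −0.39 to 0.38). The other 11 cytosolic members, AARS1, VARS1, FARSB, RARS1, MARS1, EPRS1, WARS1, KARS1, SARS1, HARS1 and LARS1, lay between −0.24 (AARS1) and −0.03 (LARS1).

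The cytosolic class was also split by known roles. The 7 members of the multisynthetase complex, the assembly that holds EPRS1, IARS1, KARS1, LARS1, MARS1, QARS1 and RARS1 together, had a median log2 fold change of −0.19 and the 12 others −0.20. The medians were −0.20 for the 9 enzymes of catalytic class I and −0.14 for the 9 of class II, leaving aside EPRS1, which carries both. Without siCtrl replicate 1 these medians were −0.12 for the complex and −0.10 outside it, and −0.11 for class I and −0.09 for class II. With siCtrl replicate 2 left out they were −0.14 for the complex and −0.23 outside it. In that fit 5 of 7 members of the complex and 12 of 12 others were below 0. The medians were then −0.24 for class I and −0.16 for class II. The 6 genes with TGATGNAA in the promoter had a median of −0.22, with 5 of 6 below 0, and the 10 cytosolic genes whose promoter lacked it −0.16, with 8 of 10 below 0. The order of these medians depended on the library left out: without siCtrl replicate 1 they were −0.04 with the motif and −0.12 without it, and without siCtrl replicate 2 −0.34, with 6 of 6 below 0, and −0.15. Within the group of 6 the values ran from −0.34 (IARS1) to 0.10 (NARS1).

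The ratio of a cytosolic to a mitochondrial transcript within a library does not depend on scaling. In 12 of 17 pairs the cytosolic log2 fold change was below the mitochondrial one, with a median difference of −0.09. The ratio did not overlap between groups in 6 of the 17 pairs, in opposite directions. No such share was computed over pairs of other genes. Of single genes 11.1% were lower and 11.0% higher without overlap. The 6 pairs are not separate, because FARSA:FARS2 and FARSB:FARS2 share FARS2, and EPRS1:EARS2 and EPRS1:PARS2 share EPRS1. It was higher after siYAP/TAZ for VARS1:VARS2, EPRS1:EARS2 and NARS1:NARS2, and lower for FARSA:FARS2, FARSB:FARS2 and EPRS1:PARS2. VARS1:VARS2 stood at 0.70, 0.78 and 0.72 in siCtrl and 1.01, 1.69 and 0.91 in siYAP/TAZ. FARSA:FARS2 stood at 0.90, 0.83 and 0.78 against 0.60, 0.54 and 0.53. These pairs were picked after their values were seen and carry no test.

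Genes next to the synthetases in the pathway are given for comparison. The multisynthetase scaffolds AIMP1, AIMP2 and EEF1E1 had log2 fold changes of −0.30, −0.05 and −0.20, with 0 of 3 called. TARS3, a paralog of TARS1, was at 13.5, 8.33 and 13.8 CPM in siCtrl and 16.1, 17.2 and 19.9 CPM after siYAP/TAZ. It was higher without overlap (log2 fold change 0.57, adjusted p 0.279). Whether TARS1 and TARS3 share reads was not tested. The editing factors AARSD1, DTD1 and DTD2, which clear mischarged tRNA, were all below 0 (median −0.21), and 4 of 6 genes of indirect aminoacylation, formylation and selenocysteine synthesis were above 0 (median 0.10), with 0 called in both lists.

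The 14 genes of tRNA maturation and export had a median log2 fold change of −0.20, 10 below 0 and 0 called, and the exporter XPOT had −0.26. Without siCtrl replicate 2 the list's median was −0.33. Of 20 genes of the amino acid response 18 were tested, 16 of them below 0, with a median of −0.12 and 0 called. Without siCtrl replicate 2 the median was −0.26, with 14 of 18 below 0. ATF4 was at 300.4, 280.2 and 217 against 257, 291 and 334 CPM (0.15, adjusted p 0.694), and ASNS, asparagine synthetase, had −0.22 (adjusted p 0.715). The replicate block called 10.1% of all genes and 2 of the 18, both lower. These were STC2 (−0.67, adjusted p 0.008) and MTHFD2 (−0.54, adjusted p 0.016), a mitochondrial enzyme of folate metabolism. Both fold changes are from the fit without the block. The ATF4 values overlapped between groups.

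All 5 cytosolic elongation factors, which serve the steps at the ribosome after charging, had positive log2 fold changes (median 0.32). Of these 0 were called without the block and 2 with it, beside 10.1% of all genes, EEF2 (0.48, adjusted p 0.017) and EEF1G (0.43, adjusted p 0.038). EEF2, the translocase of the ribosome, was at 787, 1129 and 969 CPM in siCtrl and 1097, 1462 and 1472 CPM after siYAP/TAZ, with a small overlap of groups. The 9 mitochondrial translation factors had a median of 0.02 and 0 called. Of 77 mitochondrial ribosomal protein genes 53 were below 0, with a median of −0.16 and 0 called without the block. With it 2 of 77 were lower, beside 10.1% of all genes called: MRPS26 (−0.51, adjusted p 0.035) and MRPL18 (−0.45, adjusted p 0.045). Fold changes in this paragraph are from the fit without the block.

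**Figure D5:**
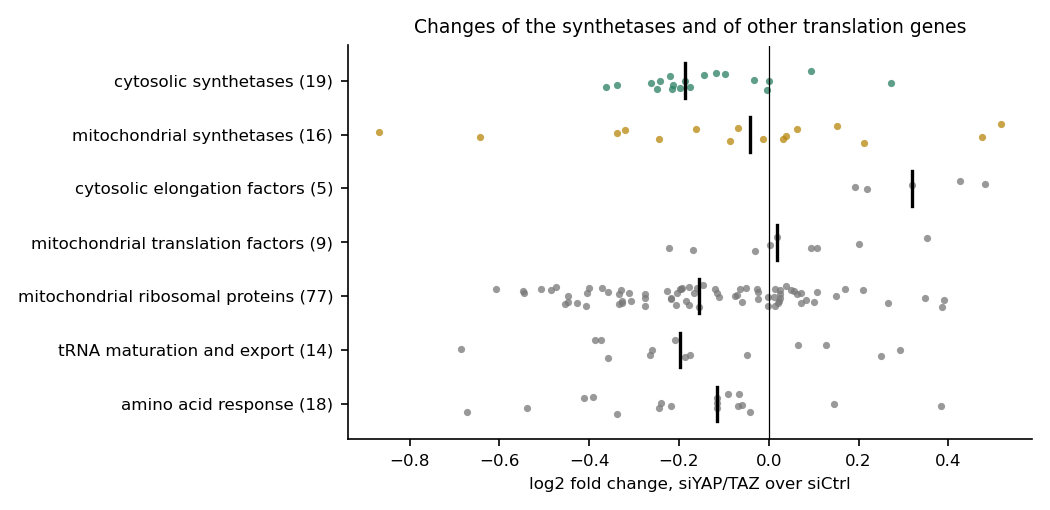
Fitted log2 fold changes (siYAP/TAZ over siCtrl) of the synthetases and of 5 other gene lists, with the number of tested genes in parentheses. Each point is a gene, displaced vertically at random for visibility, and the black bar is the median of the list. The cytosolic synthetases centre at −0.19 and the 5 cytosolic elongation factors at 0.32.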

How the data were processed

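QuantSeq 3′ mRNA libraries (forward kit) were made from MCF10A cells. Per the labels, the authors trimmed reads with cutadapt 4.2 and aligned them to hg19 with Bowtie2 2.3.5.1. The deposited values are raw read counts per Entrez gene for 6 libraries. The gene annotation and the use of strand in counting are not given in the sources used here, so opposite-strand overlapping genes may share reads: 15 members overlap another gene. Of 23459 IDs 23308 were matched to symbols, covering 99.7% of counts. No mitochondrially encoded gene was analysed here.

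Counts were filtered (filterByExpr), TMM-scaled and tested with edgeR 4.0.16 (quasi-likelihood, R 4.3.3), tested on simulated data first, with Benjamini-Hochberg adjustment over all genes tested. DESeq2 1.42.0 and other scalings, filters, left-out libraries and a replicate block were alternatives. Same-numbered libraries deviated together (r = 0.416, 0.345 and 0.129 for replicates 1, 2 and 3, numbers from the description field), so the block pairs the libraries. Replicates differed by more than sampling noise (chi-square per degree of freedom 5.37 to 17.4). Total counts of 3175149 to 4317286 limit precision, and the limit for 0 counts covers counting error only. The members, gene lists and promoter motifs were chosen with earlier results of these data known. All 35 members are named. Values in every library are given for members past the threshold with or without the block and for the 4 highest and 4 lowest fold changes of each class. Of the lists, genes past the threshold with or without the block and 6 further genes of the lists are named, and 1 list is not reported here. RARS1, TARS3, MARS2 and the pair ratios were added after their values were seen. Gene positions are from an annotation on GRCh37, promoters from RefSeq on GRCh38.p14.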

Additional observations from a re-analysis of the deposited data

How the results depend on the processing

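The number of genes past adjusted p 0.05 depended strongly on the processing. It was 245 in the edgeR fit, 587 in DESeq2, 556 with no low-count filter, 1263 with the replicate block and 1183 without both libraries whose titles name the other group. Leaving out 1 library at a time gave 16 to 1579 genes: 92, 1579 and 16 without siCtrl replicates 1, 2 and 3, and 71 and 18 without siYAP/TAZ replicates 2 and 3. Grouped by title, 0 genes passed in edgeR, with 464 at an unadjusted p under 0.05.

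Cytosolic members past the threshold stayed at 0 in every alternative run. The mitochondrial count was 0 and became 1, VARS2, in DESeq2, with no low-count filter, with the replicate block and without both libraries whose titles name the other group, and 0 to 1 when 1 library was left out. The block changed no other call among the members. The medians of both classes and their difference moved by less than the spread between replicates in every alternative run.

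Of 35 members 26 kept their direction in every alternative other than the grouping by title, which was not counted for single members. The other 9 were close to 0 and turned. CARS1 was at 0.0139 for genes of at least 50 counts on average and ran from −0.0918 to 0.127 over left-out libraries. GARS1 was at −0.0066 in DESeq2, −0.0004 with RLE scaling, −0.0203 with library size alone, −0.0023 with no filter and −0.0412 without both libraries whose titles name the other group, and ran from −0.077 to 0.0698 over left-out libraries. IARS2 was at 0.0024 for genes of at least 50 counts and 0.0551 without both libraries (−0.0728 to 0.116 over left-out libraries), NARS1 at −0.0588 (−0.0526 to 0.223) and MARS2 at −0.127 (−0.37 to 0.332) without both. Over left-out libraries LARS1 ran from −0.113 to 0.0756, CARS2 from −0.0487 to 0.116, RARS2 from −0.0085 to 0.168 and SARS2 from −0.16 to 0.0049. The cause was not tested. PARS2 and AARS2, which had the lowest levels of all members and the fewest counts behind their values, were not among these 9.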

Other observations

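WARS1, the cytosolic tryptophanyl enzyme, is known to be induced by interferon gamma, and genes of that response were therefore listed. Of 13 listed genes 8 were tested, 7 of them above 0 with a median log2 fold change of 0.51, and 0 were called without the replicate block. The block called 10.1% of all genes. In this list it called GBP2 (1.85, adjusted p 0.010) and OAS1 (0.99, adjusted p 0.045) higher and GBP1 (−0.79, adjusted p 0.030) lower. These fold changes are from the fit without the block, and the adjusted p values from the fit with it. GBP2, a guanylate-binding protein, was at 10.6, 41.0 and 7.54 CPM in siCtrl and 62.8, 63.5 and 83.5 CPM after siYAP/TAZ, the second siCtrl library lying between the other siCtrl libraries and the siYAP/TAZ ones. WARS1 itself was at 35.3, 27.8 and 34.7 CPM in siCtrl and 33.1, 26.4 and 26.9 CPM after siYAP/TAZ, with overlapping groups and a log2 fold change of −0.17.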
